A study of Mus musculus with 6 samples.

Results

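The pyramidal neurons of the hippocampal fields CA2 and CA3 were followed through 10 marker genes, taken by name. Rgs14, Cacng5, Amigo2, Map3k15 and Pcp4 stand for CA2, and Grik4, Bok, Iyd, Socs2 and Nrip3 for CA3, as assigned from general knowledge of the fields. All 10 were found among the 37620 gene identifiers of each library, and all 10 were among the 16432 genes with enough reads to be tested. RNA sequencing was made of the whole hippocampus of C57BL/6 mice aged 13 weeks, 3 wildtype and 3 labelled miR17-92 knockout, each mouse taken from a litter of its own. The question the design poses for these genes is whether their levels differed between knockout and wildtype. The labels give no Cre line, allele or cell type for the deletion.

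Granule cells of the dentate gyrus send mossy fibres to CA3 pyramidal cells, which excite one another and project on to CA1. CA2 is a small field between CA3 and CA1, known for its part in social memory and for the weak long-term potentiation of its synapses. The miR-17-92 cluster is a group of microRNAs cut from a single host transcript, Mir17hg, and each of them pairs through its seed, bases 2 to 8, with sites in the 3' untranslated regions (3' UTRs) of messenger RNAs. Mir17hg itself was counted at 43, 47 and 36 reads in the wildtype libraries and at 30, 35 and 37 in the knockout libraries. Scaled by library size (CPM, defined below), these were 1.07, 1.07 and 1.13 in wildtype and 0.933, 1.33 and 0.649 in knockout. The wildtype values lay within the knockout range. The log2 fold, knockout over wildtype, was -0.22 (SE 0.28, adjusted p = 0.813 in edgeR's test). No reduction of the host transcript was thus detected in the knockout libraries, so it does not bear out the genotype labels. The reason was not tested.

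The mature microRNAs of the cluster are shown because their seeds define the sites searched for in the markers. They are given from RefSeq on GRCm38.p6, where the cluster lies on the plus strand at chr14:115043684-115044496, with the seed in capitals. miR-17 and miR-20a share a seed, as do the 2 forms of miR-19.
mmu-miR-17-5p: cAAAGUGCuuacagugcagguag
mmu-miR-20a-5p: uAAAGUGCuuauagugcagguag
mmu-miR-18a-5p: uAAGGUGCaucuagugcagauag
mmu-miR-19a-3p: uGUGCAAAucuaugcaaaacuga
mmu-miR-19b-3p: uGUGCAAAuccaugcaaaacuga
mmu-miR-92a-3p: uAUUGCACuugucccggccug

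Only Nrip3, of the 10 markers, held a seed site in its longest annotated 3' UTR. Sites were matches of 7 bases on the transcript strand, GCACTTT for miR-17 and miR-20a, GCACCTT for miR-18a, TTTGCAC for miR-19 and GTGCAAT for miR-92a. The 3' UTR of Nrip3, the longest of the 10 at 3119 bases, held 2 sites for miR-17 and miR-20a and 1 for miR-18a, printed here with 10 bases on each side and the site in capitals. Positions are counted from 1 at the base after the stop codon.
Nrip3 miR-18a site at 2048 to 2054: ggaggaacctGCACCTTcctgaggctc
Nrip3 miR-17 and miR-20a site at 2068 to 2074: gaggctccctGCACTTTtgttcatcac
Nrip3 miR-17 and miR-20a site at 3037 to 3043: ttctgcattaGCACTTTatctgctcag

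Sites of at least 1 of these seeds were present in 33.4% of the 14518 tested genes whose 3' UTR is annotated, against 1 of the 10 markers. By seed, the shares of all genes were 14.4% for miR-17 and miR-20a, 9.29% for miR-18a, 13.1% for miR-19 and 7.59% for miR-92a. The 3' UTRs of the markers had a median length of 760 bases, against 1192 bases over those genes. Cacng5 and Grik4, with 2747 and 2694 bases, held none of these letters. The map of the 3' UTRs shows this.

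**Figure D1:**
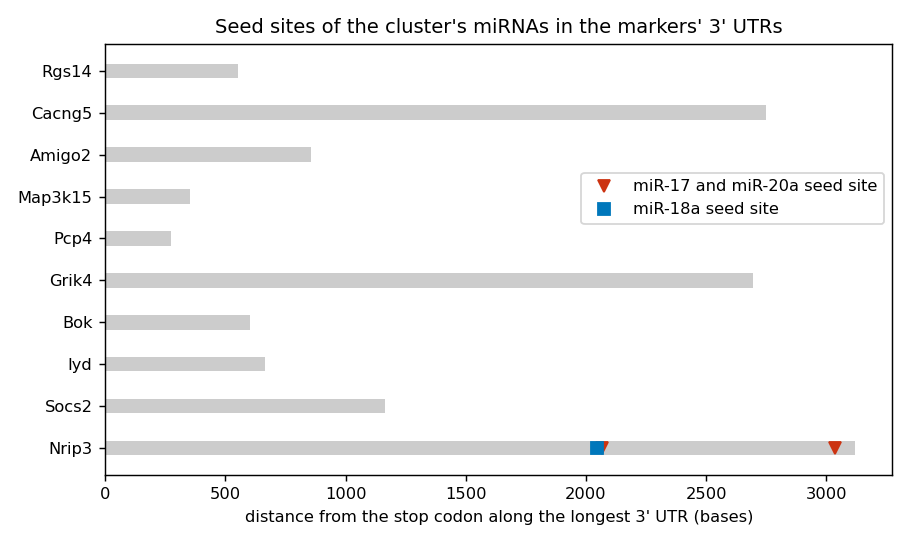
Each grey bar is the longest annotated 3' UTR of a marker gene, in bases from the stop codon, and each symbol is a seed site of the cluster's microRNAs. The 3 sites all lie in Nrip3, and the other 9 genes have none.

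The 6 libraries held between 26439693 and 57246827 reads assigned to genes. Markers were read deeply enough to compare, with 138 to 24738 reads per gene and library. A marker each of the dentate gyrus and of CA1 is given as a check of the tissue. Prox1 of dentate granule cells measured 169 ± 1.94 and 179 ± 10.9 CPM in wildtype and knockout (SD, n = 3), and Wfs1 of CA1 measured 209 ± 34.6 and 178 ± 18.3 CPM (SD, n = 3). CPM are read counts scaled by the size of the library, with sizes adjusted by the TMM method, and log2 folds are knockout over wildtype. In RNA of a whole tissue, fewer cells of a type and less RNA per cell cannot be told apart.

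No CA2 or CA3 marker differed between the genotypes past the threshold. With edgeR's quasi-likelihood test, 0 of the 10 had an adjusted p under 0.05, where 0% of all genes did. The smallest adjusted p was 0.418, that of Amigo2. At an unadjusted p under 0.05 there was 1 marker, Amigo2, against 10.6% of all genes, or 5.05% of all genes in its direction. Log2 folds ran from -0.19 to 0.20, with 5 above 0 and 5 below, where 50.0% of all genes were above 0. The median over the 10 was 0.01 and that over all tested genes was 0.00. The 5 CA2 markers had a median of 0.14 and the 5 CA3 markers one of -0.07. Wildtype and knockout libraries did not overlap for 1 of the 10, Rgs14, against 16.6% of all genes, or 8.34% in its direction. DESeq2 called 0 of the 10 and 1.25% of all genes, edgeR's robust fit 0 and 0.0913%, and edgeR without a filter beyond 1 read 0 and 0.244%.

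**Figure D2:**
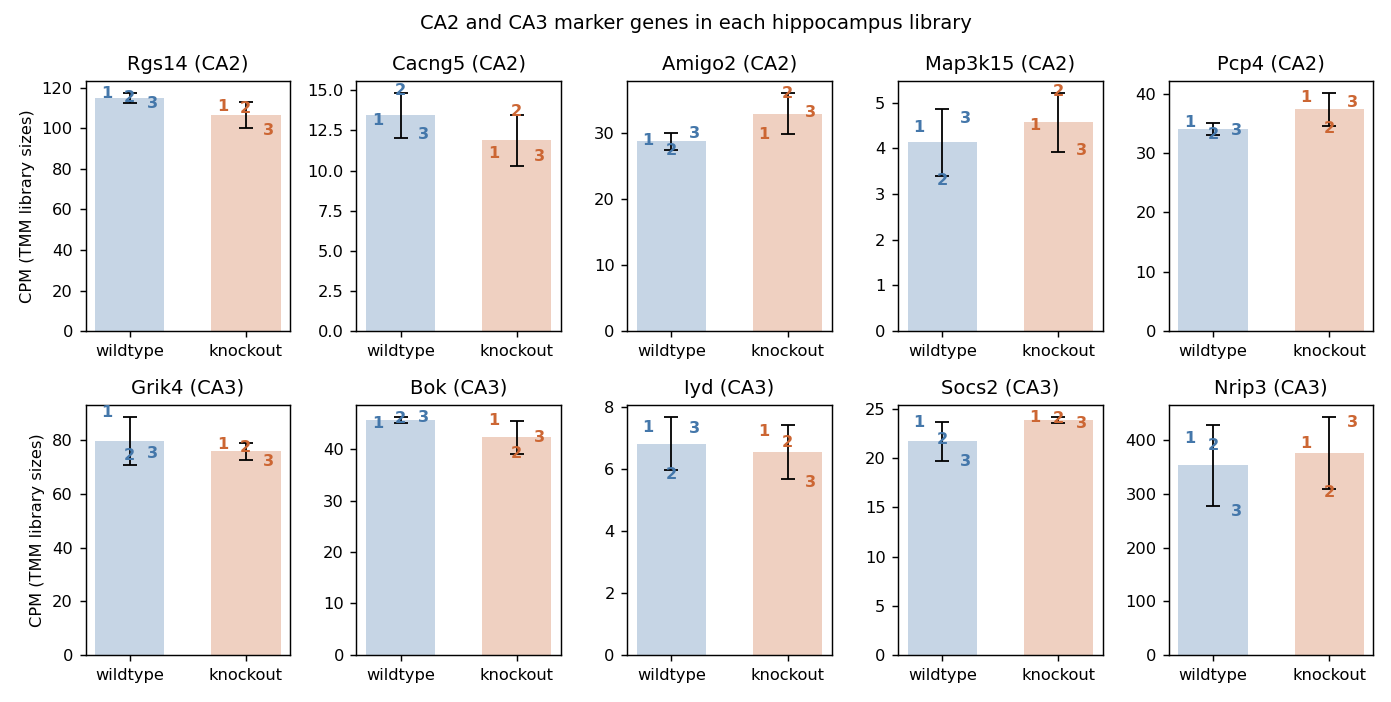
Level of each marker in CPM, with axes from 0. Bars are means, error bars are SDs of 3 libraries, and each digit is the library of that replicate number. Rgs14 is the gene whose knockout libraries, at 99.0 to 111 CPM, all lie under the wildtype libraries, at 112 to 117 CPM.

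Rgs14 encodes a scaffold of G protein and MAP kinase signalling that restrains synaptic potentiation in CA2. It measured 117, 115 and 112 CPM in wildtype replicates 1, 2 and 3, and 111, 109.5 and 99.0 CPM in knockout replicates 1, 2 and 3. The groups did not overlap, and knockout replicate 3 was the lowest. The means were 115 ± 2.38 and 106 ± 6.43 CPM (SD, n = 3), a log2 fold of -0.11 (SE 0.05, 95% interval -0.23 to 0.01) with an edgeR adjusted p of 0.499. The log2 fold was -0.06 without knockout replicate 3.

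Pcp4 encodes a small IQ motif protein that binds calmodulin, and it is used as a stain for CA2 cell bodies. Wildtype replicates 1, 2 and 3 had 35.1, 33.1 and 33.9 CPM, and knockout replicates 39.4, 34.2 and 38.5 CPM. Knockout replicate 2 lay within the wildtype range and the other knockout libraries above it. The log2 fold was 0.14 (SE 0.06, 95% interval -0.01 to 0.28), with an edgeR adjusted p of 0.502. GENCODE M21 places 23.7% of the exon bases of Pcp4 inside exons of Igsf5 on the same strand. The identifier it gives Igsf5 was not among those counted, and an effect of this overlap on the reads of Pcp4 was not tested.

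Amigo2, an adhesion protein of the neuronal surface, is enriched in CA2 and in the part of CA3 next to it. It measured 28.9, 27.4 and 29.9 CPM in wildtype and 29.7, 36.0 and 33.2 CPM in knockout replicates 1, 2 and 3. Knockout replicate 1 lay within the wildtype range, so the groups overlapped. Means of 28.7 ± 1.25 and 33.0 ± 3.13 CPM (SD, n = 3) gave a log2 fold of 0.20 (SE 0.08, 95% interval 0.03 to 0.37). This interval is not adjusted for the number of genes, and the edgeR adjusted p was 0.418. The log2 fold was 0.13 without knockout replicate 2.

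Cacng5 encodes a relative of the TARP proteins that accompany AMPA receptors. Its wildtype libraries held 13.1, 14.97 and 12.2 CPM and its knockout libraries 11.0, 13.7 and 10.9 CPM. Knockout replicates 1 and 3 were the lowest of the 6, while replicate 2 lay within the wildtype range. The log2 fold of -0.19 had an SE of 0.12 and a 95% interval of -0.45 to 0.08 (edgeR adjusted p = 0.607). Leaving out wildtype replicate 2 gave -0.10, leaving out knockout replicate 3 gave -0.13, and leaving out knockout replicate 2 gave -0.29.

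Map3k15, a kinase of the ASK family at the head of stress-activated cascades, was the least read marker. Libraries held 179, 144 and 148 reads in wildtype and 145, 138 and 226 in knockout, which is 4.46, 3.29 and 4.64 CPM and 4.51, 5.24 and 3.96 CPM. The groups overlapped, with wildtype replicate 2 the lowest library and knockout replicate 2 the highest. Its log2 fold of 0.14 (SE 0.17, 95% interval -0.24 to 0.52) was -0.0042 without wildtype replicate 2 and 0.04 without knockout replicate 2. Of its exon bases 13.9% lie opposite exons of Pdha1, which measured 192 ± 5.81 and 198 ± 4.95 CPM in the genotypes (SD, n = 3). Without a stated strand setting, reads of Pdha1 could count for Map3k15, and their share was not tested.

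Among CA3 markers, Grik4 encodes a high-affinity kainate receptor subunit of mossy fibre synapses. It measured 90.3, 74.3 and 75.2 CPM in wildtype replicates 1, 2 and 3, and 78.4, 77.2 and 72.3 CPM in knockout. Wildtype replicate 1 stood above the other 5 libraries, which lay within 72.3 to 78.4 CPM. The log2 fold was -0.07 (SE 0.08, 95% interval -0.25 to 0.10, edgeR adjusted p = 0.761), and it turned to 0.02 without wildtype replicate 1.

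Bok, a BCL2 family protein that can permeabilize mitochondria, had 45.0, 45.9 and 46.2 CPM in wildtype and 45.5, 39.2 and 42.2 CPM in knockout. Knockout replicate 1 lay within the narrow wildtype range and the other knockout libraries under it. Its log2 fold was -0.11 (SE 0.06, 95% interval -0.24 to 0.02) with an edgeR adjusted p of 0.559. Leaving out knockout replicate 2 gave -0.06, and leaving out knockout replicate 1 gave -0.17. Once the trends on GC content and length were removed, the log2 fold was -0.01. Under the same setting the log2 folds of Pcp4 and Nrip3 were 0.09 and 0.05, and that of Iyd moved away from 0, to -0.11. Bok is the most GC-rich marker at 61.0%, and the 413 tested genes within 1 percentage point of it had a median log2 fold of -0.11. Whether GC content bears on the fold of Bok was not tested.

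Socs2 encodes an inhibitor of growth hormone and STAT5 signalling. Its level was 23.6, 21.9 and 19.6 CPM in wildtype and 24.1, 24.1 and 23.6 CPM in knockout replicates 1, 2 and 3. Knockout replicates 1 and 2 lay above the wildtype range, and replicate 3 lay just within it, under wildtype replicate 1. The log2 fold was 0.14 (SE 0.07, 95% interval -0.03 to 0.30, edgeR adjusted p = 0.563), or 0.07 without wildtype replicate 3.

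Iyd encodes iodotyrosine deiodinase, which recycles iodide in the thyroid and marks CA3 in the mouse brain. It was read at 7.35, 5.83 and 7.31 CPM in wildtype and at 7.22, 6.87 and 5.57 CPM in knockout, ranges that overlapped almost wholly. A log2 fold of -0.07 (SE 0.14) had a 95% interval of -0.38 to 0.25, and it turned to 0.05 without knockout replicate 3.

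Nrip3, named for its likeness to nuclear receptor interacting proteins, was the marker with the most reads and the widest spread. Wildtype replicates 1, 2 and 3 had 404, 390 and 267 CPM and knockout replicates 394, 302 and 434 CPM. Wildtype replicate 3 and knockout replicate 2 were low, 1 library of each genotype, and the other 4 lay between 390 and 434 CPM. The means of 353 ± 75.7 and 377 ± 67.5 CPM (SD, n = 3) gave a log2 fold of 0.09 (SE 0.17, 95% interval -0.28 to 0.47, edgeR adjusted p = 0.877). It turned to -0.08 without wildtype replicate 3 and to -0.02 without knockout replicate 3. For this only marker with seed sites of the cluster, the interval reached from 17.9% lower to 38.4% higher in knockout.

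**Figure D3:**
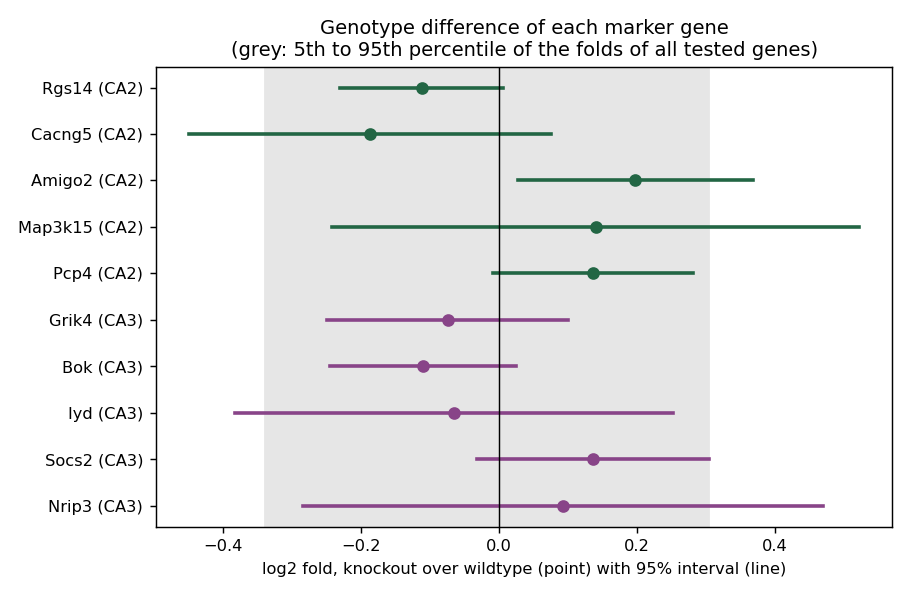
Log2 fold of each marker, knockout over wildtype, as a point with its unadjusted 95% interval as a line. The grey band runs from -0.34 to 0.30, the 5th to 95th percentile of the folds of all 16432 tested genes, and all 10 points lie inside it.

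Intervals give the size of difference that these libraries leave possible. The interval of Rgs14 reached from 14.8% lower to 0.426% higher in knockout, that of Bok from 15.6% lower to 1.73% higher, and that of Grik4 from 15.9% lower to 7.17% higher. Map3k15 had the widest, from 15.4% lower to 43.6% higher. Counting error alone was between 6.65% and 8.51% per library for Map3k15 and between 0.636% and 1.12% for Nrip3, while the spread over the 6 libraries, as a coefficient of variation, was 15.2% and 17.9%.

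The markers differed widely in level. Per kilobase of annotated exons, Nrip3 was highest in wildtype at 88.1 ± 18.9 CPM per kb (SD, n = 3), followed by Pcp4 at 33.2 ± 1.01, Rgs14 at 27.1 ± 0.563 and Bok at 24.8 ± 0.343 CPM per kb. Grik4 at 13.4 ± 1.50 and Amigo2 at 9.09 ± 0.394 CPM per kb lay in the middle. Iyd (4.21 ± 0.535), Cacng5 (3.51 ± 0.364), Socs2 (2.28 ± 0.207) and Map3k15 (0.950 ± 0.169 CPM per kb) were the lowest. Neighbours in this order did not overlap across the 3 wildtype libraries, except Iyd and Cacng5. The order depends on the length used. Over the longest transcript, Rgs14 stood at 48.3, Pcp4 at 53.1 and Socs2 at 5.12 CPM per kb in wildtype, which puts Socs2 above Iyd and Cacng5.

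**Figure D4:**
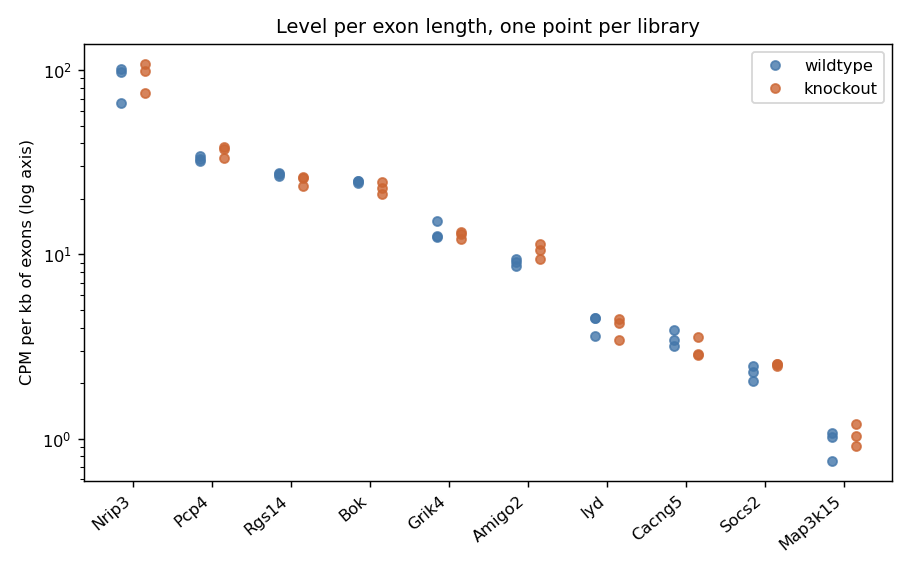
Level per kilobase of exons on a log axis, 1 point per library, with genes in order of their wildtype mean. Differences between genes are far wider than those between genotypes, and span from 0.950 CPM per kb for Map3k15 to 88.1 CPM per kb for Nrip3 in wildtype.

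Spread between mice was not shared by the markers. On the log2 CPM scale Nrip3 had an SD of 0.28 over the 6 libraries, which 3.18% of the 11462 genes with a mean of at least 5 CPM exceeded. Rgs14, at 0.09, lay at the middle, with 51.3% of genes above it. Over the 6 libraries the 10 pairs of CA2 markers had Pearson correlations between -0.88 and 0.65 with a median of -0.13, and the 10 pairs of CA3 markers between -0.54 and 0.65 with a median of 0.16. Cacng5 and Pcp4 gave the lowest value among the CA2 pairs, and Rgs14 and Cacng5 the highest. Amigo2 and Bok, from different fields, stood at -0.94. These are descriptions over 6 points that share a library and its depth. Of the pairs within a field, 4 of 10 for CA2 and 7 of 10 for CA3 lay above 0.

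The summed level of the 5 CA2 markers lay between 193 and 199 CPM in wildtype and between 185.5 and 199 CPM in knockout. Most of this sum was Rgs14, with means of 115 and 106 CPM. For the 5 CA3 markers the sum was 415 to 570 CPM and 449 to 577 CPM, most of it Nrip3. Genes most like the mean CA2 profile over the 6 libraries, among 11003 named genes of at least 5 CPM, were Zfp606 (Pearson r = 0.985), Cyb5d2 (0.984) and Zfp141 (0.979). For the CA3 profile they were Fancd2 (0.982), Acaa2 (0.973) and Baiap3 (0.965). With 6 libraries and this many genes such values describe these libraries alone.

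Of 9 further CA2 genes 0 passed in edgeR's test, 3 had folds above 0 and 6 below, and the median log2 fold was -0.03. Ntf3, the growth factor neurotrophin 3, measured 6.62 ± 0.242 and 5.44 ± 0.412 CPM (SD, n = 3), with groups that did not overlap and an edgeR adjusted p of 0.410. The phosphatase Ptpn5 and the calcium-binding protein Necab2 had log2 folds of -0.04 and -0.08. Of 7 further CA3 genes 0 passed, 4 were above 0 and 3 below, with a median of 0.03. At an unadjusted p under 0.05 in edgeR's test there were 3 of these 7 and 1 of the 9 CA2 genes, against 10.6% of all genes. Homer3, a scaffold of the postsynaptic density, measured 48.6 ± 4.51 and 41.6 ± 0.589 CPM (SD, n = 3; edgeR adjusted p = 0.333), with groups that did not overlap. Coch stood at a log2 fold of 0.42 (SE 0.18) and the RNA-binding protein Elavl2 at 0.12 (SE 0.05), each with overlapping groups.

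Families of the markers were compared by role. Of 6 other kainate receptor genes 0 passed, with a median log2 fold of 0.06. Grik5, the close relative of Grik4, measured 262, 244 and 253 CPM in wildtype and 232, 220 and 206 CPM in knockout replicates 1, 2 and 3, so that all knockout libraries lay under all wildtype ones. Its log2 fold was -0.21 (SE 0.05, edgeR adjusted p = 0.292), and the auxiliary subunits Neto1 and Neto2 stood at 0.14 and 0.15. Of 5 relatives of Cacng5 0 passed, with 4 below 0 and a median of -0.07. Cacng8, the TARP of hippocampal AMPA receptors, had the smallest p of them, at 57.1 ± 4.03 and 50.5 ± 1.89 CPM (SD, n = 3; edgeR adjusted p = 0.367). Its groups did not overlap, while those of Cacng7, with a log2 fold of -0.17, did.

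The other RGS genes, 8 in all, were split into 4 above and 4 below 0, with a median log2 fold of 0.01. Rgs4 measured 176 ± 12.1 and 206 ± 16.3 CPM (SD, n = 3), a log2 fold of 0.23 (SE 0.07, edgeR adjusted p = 0.339). Neurogranin (Nrgn), an IQ motif protein like Pcp4, had a log2 fold of -0.11 (SE 0.05), with overlapping groups. Among 7 BCL2 relatives of Bok the median was -0.03, with Bcl2 at 0.23 (SE 0.09) and Bax at -0.12. Groups did not overlap for 2 of these 7, Bcl2 among them, against 16.6% of all genes. The 11 SOCS and STAT5 pathway genes had a median of 0.03, with Socs5 at 0.09, Stat5a at -0.36 and Socs3 at 0.41, the last near 1 CPM in both genotypes. Amigo1, Amigo3, Map3k5 and Map3k6 had log2 folds of 0.03, -0.12, 0.11 and 0.33. None of the genes in these families passed in edgeR's test.

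Neighbouring fields are given for comparison. The median log2 fold of 9 tested CA1 genes was 0.02, with 5 above 0 and 1, Ccn3, without overlap between genotypes. Ccn3 measured 135 ± 12.2 and 164.5 ± 11.75 CPM (SD, n = 3; edgeR adjusted p = 0.305). Pou3f1, the remaining CA1 gene listed, had 0 reads in every library, and the reason was not tested. Dentate granule cell genes had a median of 0.19, with 9 of 11 above 0 and 5 of 11 without overlap between genotypes, as against 5 of 10 and 1 of 10 for the CA2 and CA3 markers. Over all tested genes 50.0% were above 0 and 16.6% did not overlap. In summed level, dentate genes stood at 736 to 788 CPM in wildtype and 882 to 905 CPM in knockout. The difference between these lists was not tested.

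Several markers are also expressed outside CA2 and CA3, Pcp4 for instance in striatum, thalamus and deep cortex. Summed levels of 11 thalamic genes were 408 to 421 CPM in wildtype and 407 to 411 CPM in knockout. Adarb1 alone had means of 239.5 and 237.5 CPM. Gbx2 had 0 to 3 reads per library, while Plekhg1 measured 33.8 ± 3.88 and 28.7 ± 1.18 CPM (SD, n = 3). Of the 10 thalamic genes tested, 5 log2 folds were above 0 and 5 below. For 10 striatal genes the sums were 190 to 197 and 173 to 196 CPM, with Pde10a at means of 112 and 103 CPM. For 10 cortical genes they were 409 to 413 and 410 to 424 CPM, with Bcl11b at 192 and 181 CPM. These sums rest largely on a single gene each and do not show how much of a tissue was present. Genes of meninges summed to 267 to 310 CPM in wildtype and 372 to 463 CPM in knockout, with 8 of 8 log2 folds above 0. Of 10 astrocyte genes 9 were above 0, with a median of 0.09 and overlapping sums of 5640 to 6324 and 6128 to 6646 CPM. Folds above 0 were seen for 7 of 9 tested striatal, 6 of 10 cortical and 5 of 10 GABAergic interneuron genes. They were fewer for other lists, with 1 of 8 oligodendrocyte, 3 of 8 microglial, 2 of 6 endothelial and 2 of 6 tested choroid plexus genes. Over all tested genes the share was 50.0%. The part of these tissues in the markers' values was not tested.

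Libraries also differed in depth, with wildtype replicates 1 and 2 and knockout replicate 3 above the median. Within these 3 deeper libraries the log2 difference, knockout minus wildtype, was -0.23 for Rgs14, 0.24 for Amigo2, 0.17 for Pcp4, -0.11 for Bok, -0.36 for Cacng5 and -0.18 for Grik4. Within the 3 shallower ones it was -0.03, 0.13, 0.12, -0.13, 0.01 and 0.05 for the same genes. Grik4 thus differed in sign between the sets, while Cacng5 was near 0 in the shallower one, at 0.0076. Values for Socs2 were 0.05 and 0.29, for Nrip3 0.13 and 0.37, for Iyd -0.23 and -0.05, and for Map3k15 0.05 and 0.07. When edgeR's fit held a term for these sets, the log2 fold of Nrip3 was 0.26 (unadjusted p = 0.0371, adjusted p = 0.490), that of Iyd -0.15 and that of Map3k15 0.05. Each set holds a single library of 1 of the genotypes, so the within-set values have no test.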

How the data were processed

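The authors deposited raw read counts per Ensembl gene, 1 table per mouse. Tools named in the submitters' processing notes are STAR 2.3.0e, HTSeq, SAMtools, FastQC 0.10.1 and DESeq2, with mm9 as the build. For the gene models and the strand rule of counting, the entry is: not given in the sources used here. The 5 closing rows name no gene, held 38.0% to 40.3% of each file and were left out. GENCODE M21 (GRCm38) gave names, exon lengths, GC content and 3' UTRs by identifier, with 32897 of 37620 matched. All 10 markers and all 184 entries of the gene lists matched.

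Counts were tested with edgeR 4.0.16 in R 4.3.3 (filterByExpr, TMM factors, quasi-likelihood fit on genotype, Benjamini-Hochberg adjustment over all genes at 0.05). SEs and intervals come from the fitted coefficient and its F statistic. P-values weigh the genotype difference against the spread between these mice, with the estimate of spread moderated across genes. The scripts were tested on simulated data. Alternatives were DESeq2 1.42.0, limma-voom (limma 3.58.1), edgeR's robust fit, other factors and filters, a replicate block, offsets for GC content and length, depth as a covariate, leaving out each library and, for levels, the length of the longest transcript.

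The markers and lists were chosen with earlier results of these data known. Named genes were the 10 markers, up to 3 genes of smallest p in each list described, and the 3 genes most like each field's profile. Outside this rule, Prox1, Pou3f1 and Gbx2 were named as markers of a field or tissue, Mir17hg as the host transcript, and Pdha1 and Igsf5 for their overlap with markers. Adarb1 was named for its large part in a summed level. The list of genes related to Pcp4 is not reported here beyond 1 gene.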

Additional observations from a re-analysis of the deposited data

How the results depend on the processing

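No marker was called under any of the 16 other settings, and at an unadjusted p under 0.05 their number ran from 0 to 3. Over all genes, edgeR called 0 in the fit reported, 62 without a filter beyond 1 read and 15 with the robust fit, and DESeq2 called 164. The median log2 fold of the 10 markers lay between -0.01 and 0.02 with every library included. With 1 library left out it ran from -0.0526 to 0.0913, the highest without wildtype replicate 1. Log2 folds that turned did so only when a library was left out. Map3k15 ran from -0.0042 (without wildtype replicate 2) to 0.240, Grik4 from -0.126 to 0.0222 (without wildtype replicate 1), and Iyd from -0.171 to 0.0468 (without knockout replicate 3). Nrip3 ran from -0.0768 (without wildtype replicate 3) to 0.229, and was at -0.0230 without knockout replicate 3. The cause was not tested. Rgs14, Cacng5, Amigo2, Pcp4, Bok and Socs2 kept their direction in all 16. Each mouse had its own litter, and a replicate number is only a name. Under a replicate block 0 markers were called and the median was 0.02. Across genes, the deviations of the 3 same-numbered pairs had correlations of -0.10, -0.02 and -0.15. Levels per kilobase of exons moved with the longest transcript's length for Rgs14 (48.3), Amigo2 (9.59), Pcp4 (53.1), Bok (31.1) and Socs2 (5.12 CPM per kb). Depth limited Map3k15 and Iyd most, where counting error reached 8.51% and 7.43% in a library.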

Other observations

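Cdh24, a cadherin listed among the further CA3 genes and named after its values were seen, varied between mice more than any of the 10 markers did. It measured 24.9, 19.2 and 38.1 CPM in wildtype replicates 1, 2 and 3, and 37.3, 19.3 and 17.5 CPM in knockout replicates 1, 2 and 3. The high libraries were wildtype replicate 3 and knockout replicate 1, 1 of each genotype, while the low libraries of Nrip3 were wildtype replicate 3 and knockout replicate 2. The log2 fold of Cdh24 was -0.15 (SE 0.31), and no difference between genotypes was detectable against this spread.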
